A study of Mus musculus with 11 samples.

Results

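Broad H3K4me1 domains were taken as the H3K4me1 peaks on chromosomes 1 to 19 that spanned 5 kb or more and shared no base with an H3K9me3 or H3K27me3 peak. The authors' merged peak list of H3K4me1 held 36588 peaks on these chromosomes, of which 2723 reached that width. Overlap with another mark removed 492 of the wide peaks, 350 of them for H3K27me3, 149 for H3K9me3 and 7 for both. This left 2231 domains, 6.10% of the H3K4me1 peaks, which covered 19.9 Mb or 27.8% of the bases under H3K4me1 peaks. The domains were selected on 2 measured values, peak width and overlap with other peaks, which are given only as a description. The methylation of their CpGs, their CpG content and the genes under them did not enter the choice, whereas the number of reads over them did, since peaks are called from reads.

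H3K4me1, monomethylation of lysine 4 of histone H3, is laid down mainly by the Kmt2c and Kmt2d methyltransferases and is best known as a mark of enhancers and of the flanks of promoters. Active regulatory DNA of this kind usually carries less CpG methylation than the rest of the genome, because bound transcription factors and the Tet enzymes keep methylation away or remove it. Wide stretches of the mark often lie over clusters of enhancers near genes that define a cell type. H3K9me3 marks heterochromatin, and H3K27me3 is the mark of Polycomb repression.

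The study profiled mouse E14 embryonic stem cells, an established line of 129/Ola background grown in serum with leukemia inhibitory factor (LIF), by CUT&Tag-BS. In this assay an antibody brings protein A-Tn5 transposase to chromatin with the mark, methylated adapters are inserted there, and the tagged DNA is converted with bisulfite, so that each read reports CpG methylation of DNA that lay near the mark. H3K4me1 and H3K9me3 were each profiled from 250000 cells and read in run 1 with 35-bp and in run 2 with 75-bp reads. H3K27me3 was profiled from 4000, 20000, 100000 and 250000 cells, and 1 control per mark was prepared from 250000 cells without bisulfite. All 11 samples were untreated cells of the same line. The runs of a mark were taken as repeat sequencing of 1 library, so no value has a biological replicate and no test between conditions was possible. A methylation level is the share of methylated calls among all calls, and a call is 1 read's state at 1 CpG. For a count of 0, the limit given is the level that 3 methylated calls would have, which is not the Wilson bound. The 95% intervals are Wilson intervals, and both cover counting error only, since calls on 1 fragment or on amplified copies are not independent.

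H3K4me1 run 1 and run 2 held 4917718 and 9690770 calls, and the other bisulfite libraries held from 378056 to 37177077. Of 10 markers of embryonic stem cells, 8 had an H3K4me1 peak over the gene body and 7 had a domain there. Of all 20661 protein-coding genes, 8539 had such a peak and 1235 (5.98%) a domain. Sox2 and Klf4 had no H3K4me1 peak over the body. Of 5 fibroblast feeder markers, 2 had an H3K4me1 peak, and of 5 primitive endoderm markers all 5 did. A domain lay over 0 of these 10 genes, which is near the background of 5.98% for so few genes. An H3K27me3 peak lay over all 5 primitive endoderm markers, 4 of the 5 feeder markers and 1 of the 10 stem cell markers. Of the 20661 protein-coding genes, 7500 had one. Expression was not measured.

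The domains were mostly a few kilobases wide, with a long tail. Their median width was 7153 bp, the quartiles were 5818 and 9835 bp, and the widest spanned 88010 bp. There were 883 domains of 8 kb or more, 541 of 10 kb or more and 96 of 20 kb or more. Because the merged list joins peaks of 3 libraries, a domain need not be wide in each of them. A single peak of 5 kb or more lay in 1644 domains (73.7%) in the control without bisulfite, in 1811 (81.2%) in run 1 and in 1612 (72.3%) in run 2. It lay there in all 3 libraries for 1310 domains and in none for 150, whose width came from joining. The 3 narrowest domains, of 5000 to 5002 bp, had levels of 18.3%, 11.6% and 34.7% in run 2. The 3 peaks just below the limit, of 4997 to 4999 bp over Lifr, Myo1e and Tcf7l1, had 58.4%, 23.2% and 57.1%. These are single peaks and show no step at the limit. Pooled, H3K4me1-only peaks of 3 to under 5 kb had 28.9% and domains of 5 to under 8 kb had 27.7%.

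The sequence before 5 gene starts inside domains is printed because the methylation values below differ with how densely the sequence is set with CpGs. The 250 bp before starts are not typical of a domain: they had a level of 6.23%, against 26.3% over whole domains, and 403 domains held a start. Each line gives the 250 bases before a start, 5′ to 3′ on the gene's strand, from RefSeq promoter sequences of assembly GRCm38.p6, with every CpG in capitals. The stretches are chr17:35505782-35506031 on the + strand for Pou5f1, chr7:144861136-144861385 on the + strand for Fgf4, chr1:118627695-118627944 on the + strand for Tfcp2l1, chr12:3891494-3891743 on the + strand for Dnmt3a and chr15:7140292-7140541 on the + strand for Lifr.
Pou5f1: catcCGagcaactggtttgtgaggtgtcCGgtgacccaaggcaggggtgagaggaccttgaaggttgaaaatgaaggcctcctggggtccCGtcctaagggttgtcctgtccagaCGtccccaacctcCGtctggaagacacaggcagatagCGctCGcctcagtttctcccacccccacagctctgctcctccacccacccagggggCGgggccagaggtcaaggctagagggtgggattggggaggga
Fgf4: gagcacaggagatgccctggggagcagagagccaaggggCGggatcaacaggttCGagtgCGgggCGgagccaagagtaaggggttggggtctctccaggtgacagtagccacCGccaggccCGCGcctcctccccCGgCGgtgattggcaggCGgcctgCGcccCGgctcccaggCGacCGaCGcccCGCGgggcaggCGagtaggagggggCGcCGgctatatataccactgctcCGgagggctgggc
Tfcp2l1: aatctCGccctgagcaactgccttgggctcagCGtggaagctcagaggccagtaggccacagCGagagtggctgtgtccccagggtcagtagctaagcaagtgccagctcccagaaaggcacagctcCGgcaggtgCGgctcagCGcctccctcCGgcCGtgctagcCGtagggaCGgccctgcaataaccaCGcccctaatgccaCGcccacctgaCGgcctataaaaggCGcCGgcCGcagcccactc
Dnmt3a: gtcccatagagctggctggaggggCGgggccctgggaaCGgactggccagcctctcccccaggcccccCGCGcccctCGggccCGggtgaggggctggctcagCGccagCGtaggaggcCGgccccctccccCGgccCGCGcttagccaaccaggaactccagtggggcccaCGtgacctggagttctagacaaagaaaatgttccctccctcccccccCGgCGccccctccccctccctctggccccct
Lifr: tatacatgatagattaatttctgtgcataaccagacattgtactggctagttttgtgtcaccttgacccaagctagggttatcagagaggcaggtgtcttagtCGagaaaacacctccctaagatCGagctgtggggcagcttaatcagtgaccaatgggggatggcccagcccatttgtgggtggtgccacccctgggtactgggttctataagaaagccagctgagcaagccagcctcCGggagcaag

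These stretches held from 3 CpGs at Lifr to 21 at Fgf4. In run 2, Fgf4, a growth factor gene of the pluripotent epiblast, had 0 methylated of 135 calls over its 21 CpGs, and 3 calls would have been 2.22%. Dnmt3a, a de novo DNA methyltransferase, had 0 of 86 calls over 15 CpGs, where 3 calls would have been 3.49%. At Tfcp2l1, a naive pluripotency factor, 1 of 145 calls over 16 CpGs was methylated (0.690%, interval 0.122 to 3.80%). Pou5f1, which encodes the pluripotency factor Oct4, had 0 of 20 calls over 8 CpGs, where 3 calls would have been 15.0%. Lifr, the LIF receptor, stood apart with 12 methylated of 46 calls over its 3 CpGs (26.1%, interval 15.6 to 40.3%), and run 1 had 25% there over 20 calls.

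Over all 542 starts inside domains, the same 250 bases held a median of 6 CpGs, the same median as over all 31365 starts of the table. With at least 10 calls, 488 of these starts had a median level of 1.27%, quartiles of 0 and 13.0%. Of the 488, 353 (72.3%) lay under 10% and 35 (7.17%) at 50% or more. Levels were not worked out for starts outside domains, so these shares cannot be called particular to domain starts. The level fell with CpG number, from 16.4% over 212 starts with under 5 CpGs (interval 15.5 to 17.4%) to 7.33% over 201 starts with 5 to 14 (6.90 to 7.78%) and 0.532% over 129 starts with 15 or more (0.424 to 0.667%). Searched on both strands, the letters GGGCGG, the core of a GC box, were in 40.8% of the 250-base stretches of domain starts and in 33.0% of those of all starts. CCAAT was in 30.6% against 33.7%, and TATAAA in 7.38% against 12.4%. Fgf4, Dnmt3a and Pou5f1 had GGGCGG, and Tfcp2l1 had TATAAA. Such a match is a description of the letters and no evidence that a factor binds.

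Taken as a whole, the domains were partly methylated. In H3K4me1 run 2, 584379 of 2224847 calls were methylated, a level of 26.3% (interval 26.2 to 26.3%), and in run 1 it was 26.2% (26.1 to 26.3%, 1134438 calls). Calls were deep, at 8.22 per CpG in run 2, and 95.4% of the 270501 CpGs in the domains had at least 1. Chromosomes ranged from 24.2% on chromosome 18 to 27.9% on chromosome 16, with an SD of 0.978 points over 19 chromosomes. All H3K4me1 run 2 calls on chromosomes 1 to 19 gave 32.6%.

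Single domains spread far more widely than chromosomes. Their median level was 27.3%, the quartiles were 19.9 and 36.7%, and the range ran from 2.06 to 79.6%. Levels under 20% were found in 562 domains (25.2%, interval 23.4 to 27%), against a background of 34.1% of all H3K4me1 peaks with at least 20 calls. Levels of 50% or more were found in 134 domains (6.01%, interval 5.09 to 7.07%), against a background of 18.9%. Among the narrower H3K4me1-only peaks, 27.4% lay under 20% and 24.2% at 50% or more. Of these, the peaks of 3 to under 5 kb had 24.0% under 20%, close to the share of the domains. Levels from 20 to under 40% held 1243 domains (55.7%), against 33.8% of the narrower H3K4me1-only peaks. In run 2, 0 of 2231 domains reached 80%, against 1.79% of the narrower peaks, and in run 1 the highest domain had 81.6%. Between run 1 and run 2 the level of a domain differed by a median of 1.46 points and at most 13.9 points.

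**Figure D1:**
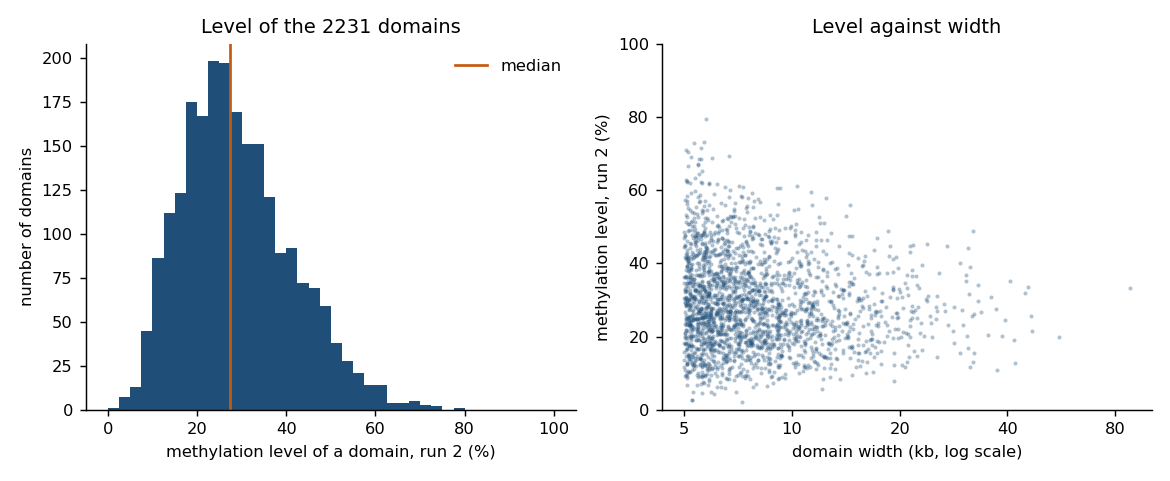
Left, number of domains (y) by methylation level in H3K4me1 run 2 (x, %), with the median of 27.3% as a line. Right, the level of each domain (y, %) against its width (x, kb, log scale): levels from 2.06 to 79.6% occur among the narrow domains, and the 10 widest lie between 12.9 and 35.1%.

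Most single CpGs were not at an intermediate level. Among 169221 CpGs of the domains with at least 5 calls in run 2, 52.2% were methylated in 20% of calls or fewer, 9.67% in 80% or more, and 38.2% lay between. No methylated call was seen at 29.4% of them. The narrower H3K4me1-only peaks were close to this, with 52.0%, 11.7% and 36.4% of such CpGs in these classes. No methylated call was seen at 32.3% of theirs. Methylation also varied along a domain. In windows of 1 kb with at least 20 calls, the median domain had its lowest window at 4.52% and its highest at 67.2%, over 2214 domains with at least 3 such windows. The median SD between windows of a domain was 21.0 points, against 4.99 points from counting if each domain had 1 level. Of these domains, 950 (42.9%) held both a window under 10% and a window of 60% or more. A wider region holds more windows and so more readily both kinds. Windows of other H3K4me1 peaks were not worked out, so this share has no background.

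The widest domain, chr14:21500182-21588191, spanned 88010 bp of Kat6b, a histone acetyltransferase gene, at 33.3% in run 2 (interval 32.3 to 34.5%, 7008 calls) and 33.9% in run 1. In the control without bisulfite, 14 separate peaks lay in this domain, the widest of 20675 bp. Of its 81 windows with at least 20 calls, 5 lay under 10% and 9 at 60% or more. The second, chr9:114504767-114560643, covered Trim71, an RNA-binding regulator of stem cells, and Ccr4 at 20% (interval 19.1 to 20.9%, 7853 calls), with 14 of 55 windows under 10%. A domain of 41804 bp over Esrrb, an orphan nuclear receptor of the naive pluripotency network, had 19% (interval 17.9 to 20.2%, 4517 calls), and 16 of its 40 windows lay under 10%. Myo10, an unconventional myosin gene, had the lowest level of the 10 widest domains, 12.9% (interval 12.2 to 13.6%, 8738 calls), with 19 of 41 windows under 10%. Jarid2, which encodes a cofactor of Polycomb repressive complex 2, had 33.5% over 45753 bp (interval 31.7 to 35.3%, 2574 calls). The widest control peak was 23618 bp in the Jarid2 domain and 20723 bp in that of Myo10. It was 54234 bp in the Trim71 domain and 38560 bp in the wide Esrrb domain. The others of the 10 widest lay over Zfp532 (21.5%), Aff1 (25.7%), Tns3 (32.0%), Jade1 (35.1%) and Usp7 (24.6%). Run 1 differed from run 2 by at most 0.832 points in these 10 domains.

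**Figure D2:**
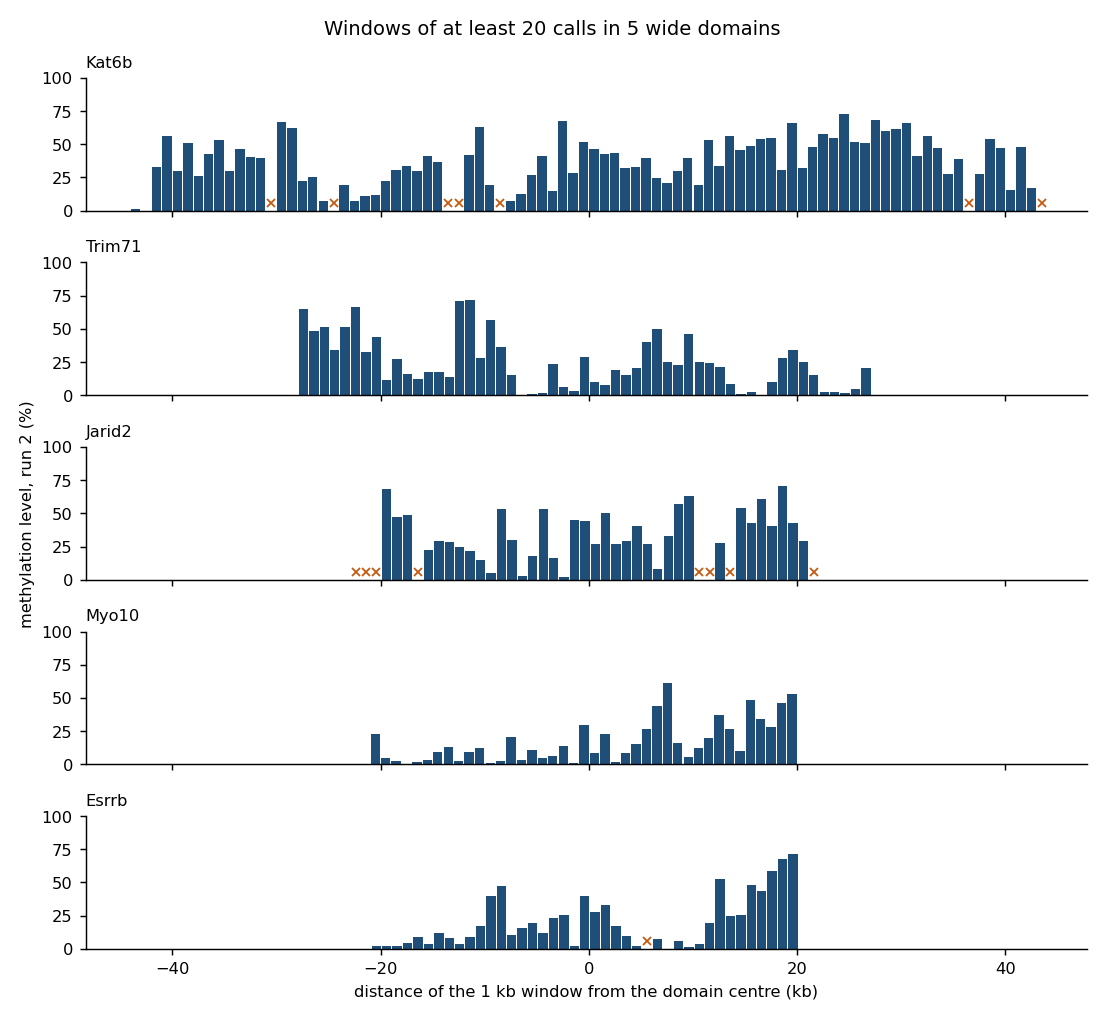
Methylation level in H3K4me1 run 2 (y, %) of 1-kb windows against their distance from the domain centre (x, kb), for the wide domains over Kat6b, Trim71, Jarid2, Myo10 and Esrrb, drawn left to right in chromosome order. A cross marks a window with under 20 calls, and windows near 0 stand beside windows above 60% within 1 domain.

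Domains at the low end were mostly CpG-rich. Among the 5 lowest were chr14:48651202-48656472, over no gene, at 2.67% (673 calls), and chr5:137347931-137353183, with the starts of Ephb4, an ephrin receptor gene, and Gm52791, at 2.79% (574 calls). Domains with the starts of Gm11266 and Gm16201 had 4.35% and 4.60%. The 5 highest levels were all in domains of under 6 kb with no start inside. Mtss1, a gene of actin and membrane organisation, had 79.6% (interval 75.2 to 83.4%, 373 calls) in chr15:59029666-59035412 and 81.5% in run 1. Gli2, a Hedgehog-pathway transcription factor gene, had 73.3% (206 calls), Tcf20 73.0% (111 calls), Actn1 71.6% (218 calls) and chr19:6668500-6673563, over no gene, 71.2% (208 calls).

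From edge to centre, the level fell. With each domain folded at its middle and the way from edge to centre cut into 10 equal bins, run 2 had 38.9% in the outermost bin (interval 38.7 to 39.2%), 31.6% in the next and 27.5% in the third. It went on down more slowly to 22.7% in the ninth and 23.5% in the innermost (23.3 to 23.6%). Run 1 had 38.5% in the outermost bin. CpG density changed little along the way, from 14.1 per kb at the edge to 13.3 at the centre. Calls per CpG rose from 4.15 to 9.42 in the same bins. At CpGs with 3 to 4 calls the outermost bin had 46.2% and the innermost 38.4%, and with 20 or more calls 17.5% and 13.2%.

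The inner 40% of the width had 23.8% (interval 23.7 to 23.8%, 1006182 calls) and the outer 30% on each side had 28.3% (28.3 to 28.4%, 1218665 calls), a difference of -4.57 points, and of -4.36 in run 1. The centre was lower on 19 of 19 chromosomes, with differences from -8.99 to -1.29 points. Because depth rose along the same way, centre and edges were also set side by side at CpGs with equal numbers of calls. The difference was then -0.972 points at CpGs with 1 to 2 calls, -2.65 at 3 to 4, -2.76 at 5 to 9, -2.04 at 10 to 19 and -1.60 at 20 or more. The direction held in all 5 classes, and their mean was -2.00 points. Outside chromosome 18, 1413 domains had neither a start of the promoter table nor, for genes without an entry there, either end of the gene within 1 kb. Their inner 40% had 25.1% and their outer parts 31.6%, a difference of -6.54 points. The 403 domains with a start inside had 21.3% and 22.7%, a difference of -1.37 points. Peaks of 3 to under 5 kb with no other mark had a larger difference than the domains, -8.22 points, and all narrower H3K4me1-only peaks had -8.79, so the fall was not particular to the domains.

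**Figure D3:**
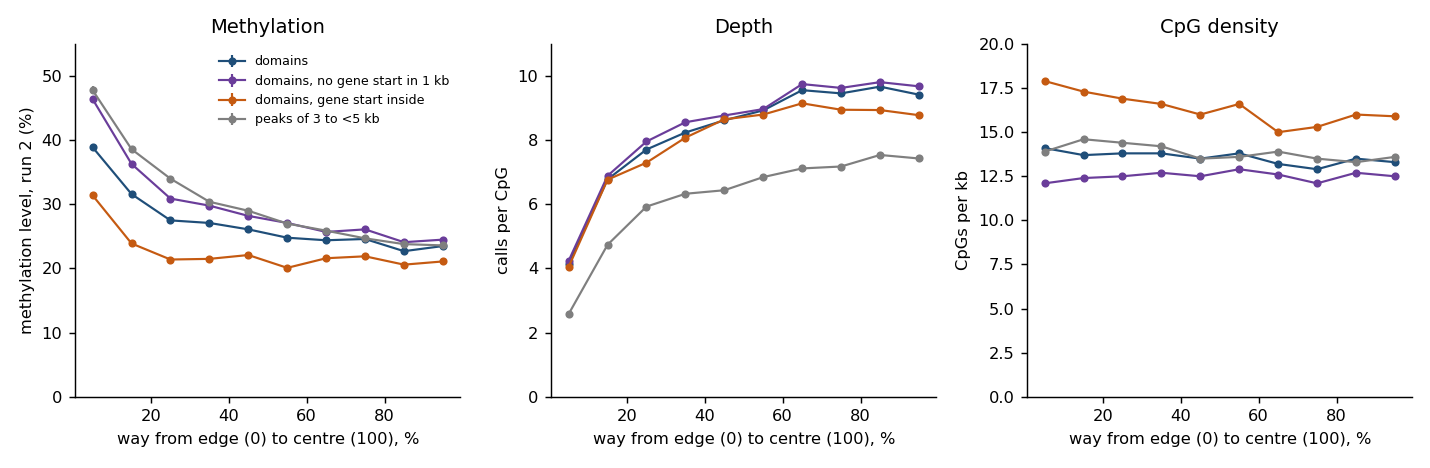
Methylation level in H3K4me1 run 2 (left, %, bars are 95% intervals), calls per CpG (middle) and CpGs per kb (right) in 10 bins from edge to centre (x, %), for all domains, domains without a gene start within 1 kb, domains with a start inside and H3K4me1-only peaks of 3 to under 5 kb. The level of all domains goes from 38.9% to 23.5% while calls per CpG go from 4.15 to 9.42 and CpG density stays between 12.9 and 14.1 per kb.

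The pooled profile did not describe every domain. Over the 2231 domains, centre minus edges had a median of -4.42 points and an SD of 18.8, and it was below 0 in 1343 (60.2%). That share is near the background of 62.8% of all H3K4me1 peaks and the 63.6% of narrower H3K4me1-only peaks. A centre at least 20 points lower was found in 461 domains (20.7%, interval 19 to 22.4%), against a background of 25.7% of all H3K4me1 peaks. A centre at least 20 points higher was found in 235 (10.5%, interval 9.33 to 11.9%), near the background of 10.1%. The sign was the same in both runs in 2065 domains. Of the domains at least 20 points lower in run 2, 410 were so in run 1 as well, and of those at least 20 points higher, 192 were. With the inner and outer 25% of the half-width compared in place of these zones, 803 domains had a centre at least 20 points lower.

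The steepest falls in run 2 were at Ext1, a heparan sulfate polymerase gene, and Lnx2, an E3 ubiquitin ligase gene. In chr15:53173435-53179215 within Ext1, the centre had 10.2% of 362 calls methylated and the edges 76.6% of 94, and run 1 had 7.78% and 64.2%. In chr5:147063799-147068828 within Lnx2, the centre had 5.17% of 232 calls and the edges 66.5% of 191, and run 1 had 10.5% and 58.6%. The next, chr18:35811798-35817669, over no gene, had 0.882% of 340 calls in the centre and 54.8% of 84 at the edges. In run 1 it had 1.72% and 61.7%, the largest fall of the 3. In the opposite direction, chr1:59422091-59427950, over no gene, had 71.2% of 66 calls in its centre and 6.29% of 620 at its edges, a methylated centre between low edges. Cfap43, a cilium gene, held a similar domain at chr19:47788792-47795894, with 74.1% of 139 calls in the centre and 19% of 495 at the edges. Neither was 1 wide peak in the control without bisulfite. The chr1 domain, of 5860 bp, held 2 control peaks, the widest of 2386 bp. The Cfap43 domain, of 7103 bp, held 4, the widest of 2246 bp. Whether such centres are gaps between joined peaks was not tested. Among domains with a control peak of 5 kb or more, 8.27% had a centre at least 20 points higher.

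The step at the edge was also seen in libraries of the other marks, whose own peaks the domains do not touch. Between 3000 and 500 bp outside the edge, H3K4me1 run 2 had 46.3 to 49.2%, less than just outside it. From 500 bp outside to 500 bp inside the edge, H3K4me1 run 2 went from 53.3% to 39.8%, and at 2000 to 2500 bp inside it reached 24.4%. The H3K27me3 library from 250000 cells went from 48.3% to 35.4% and then to 24.4%, while its calls per CpG were 0.232, 0.364 and 0.325. H3K9me3 run 2 went from 64.2% to 49.2% and 30.3%, at 0.0828, 0.127 and 0.120 calls per CpG. In both of these libraries calls per CpG rose across the edge and fell slightly further inside, and the part of depth in the fall of the level was not tested for them. Centre minus edges was below 0 in both runs of H3K4me1, in both runs of H3K9me3 and in the 4 H3K27me3 libraries, from -2.38 points with 20000 cells to -13.4 with 4000 cells for H3K27me3, the latter over 917 calls only.

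**Figure D4:**
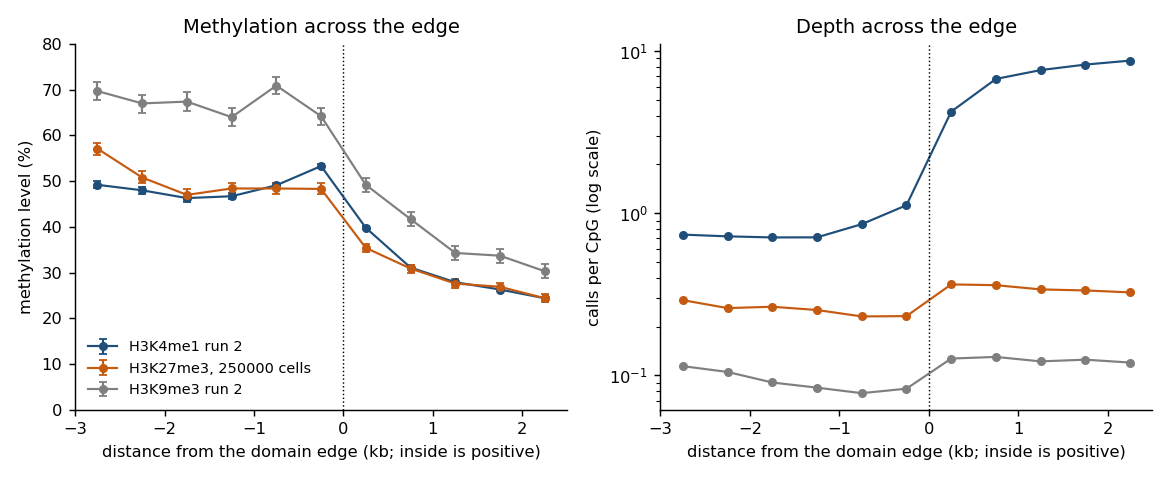
Methylation level (left, %, bars are 95% intervals) and calls per CpG (right, log scale) in 500-bp steps by distance from the domain edge (x, kb, inside positive), for H3K4me1 run 2, H3K27me3 from 250000 cells and H3K9me3 run 2. All 3 libraries go down across the edge, H3K27me3 from 48.3% to 24.4% at 0.232 to 0.364 calls per CpG.

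Over whole domains the H3K27me3 library from 250000 cells had 27.4% (interval 27.2 to 27.7%, 85927 calls) and H3K9me3 run 2 had 35.9% (35.4 to 36.5%, 30772 calls). At the 61245 CpGs of the domains called in both, H3K27me3 had 27.5% and H3K4me1 run 2 had 28.2%, a difference of -0.642 points. At the 24932 CpGs called in both H3K9me3 run 2 and H3K4me1 run 2, H3K9me3 had 35.5% and H3K4me1 29.9%, a difference of 5.62 points. The H3K9me3 library placed only 0.507% of its calls on chromosomes 1 to 19 in the domains, and H3K4me1 run 2 placed 23.2% there. With 1 library per mark, the mark and the library cannot be told apart in these differences.

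How the domains stood against the 26702 narrower H3K4me1-only peaks depended on how calls were weighed. Pooled over calls, the domains had 26.3% and the narrower peaks 30.3% (interval 30.2 to 30.3%), a difference of -4.02 points in run 2 and -3.91 in run 1. The domains were lower on 19 of 19 chromosomes, with differences from -6.40 to -2.02 points. But the narrower peaks had 4.68 calls per CpG against 8.22, and the level fell with the number of calls at a CpG in both sets. In the domains it was 40.9% at CpGs with 1 to 2 calls, 34.8% at 5 to 9 and 13.9% at 20 or more. At equal calls per CpG the domains were higher, 41.1 against 38.1% at CpGs with 3 to 4 calls and 24.9 against 22.7% at 10 to 19, and so in all 5 classes, by 1.82 to 3.04 points. At CpGs with at least 10 calls the sets had 20.4 and 20.3%. With single CpG levels averaged, the domains had 33.2% and the narrower peaks 35.0%, a difference of -1.80 points. The order of the sets thus changed with the weighting of calls.

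The level was lower in domains of higher CpG density. The domains held 13.6 CpGs per kb in total, with a median of 13.3, quartiles of 10.5 and 16.0 and a range of 3.30 to 38.8. The narrower peaks held 14.6 per kb and chromosomes 1 to 19 as a whole 8.48. Across the 2231 domains, Spearman's rho of CpG density and level was -0.287, a description over domains that share 1 library. Domains with under 10 CpGs per kb had 30.2% and those with 20 to under 30 had 21.7%. The narrower peaks went from 35.8 to 27.1% over the same classes, so the pooled order of the sets held there. Only with 30 or more CpGs per kb were the domains higher, at 16.2 against 12.7%, and that class held 14 domains. Counted by neighbours, CpGs with 0 to 4 others within 500 bp had 36.3%, those with 10 to 19 had 28.0% and those with 40 or more had 4.18% (interval 4.05 to 4.31%). The last class made up 8.18% of the domains' CpGs and had 4 calls per CpG, against 8.88 with 10 to 19 neighbours. Left with only CpGs of under 15 neighbours, centre minus edges was -5.96 points.

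**Figure D5:**
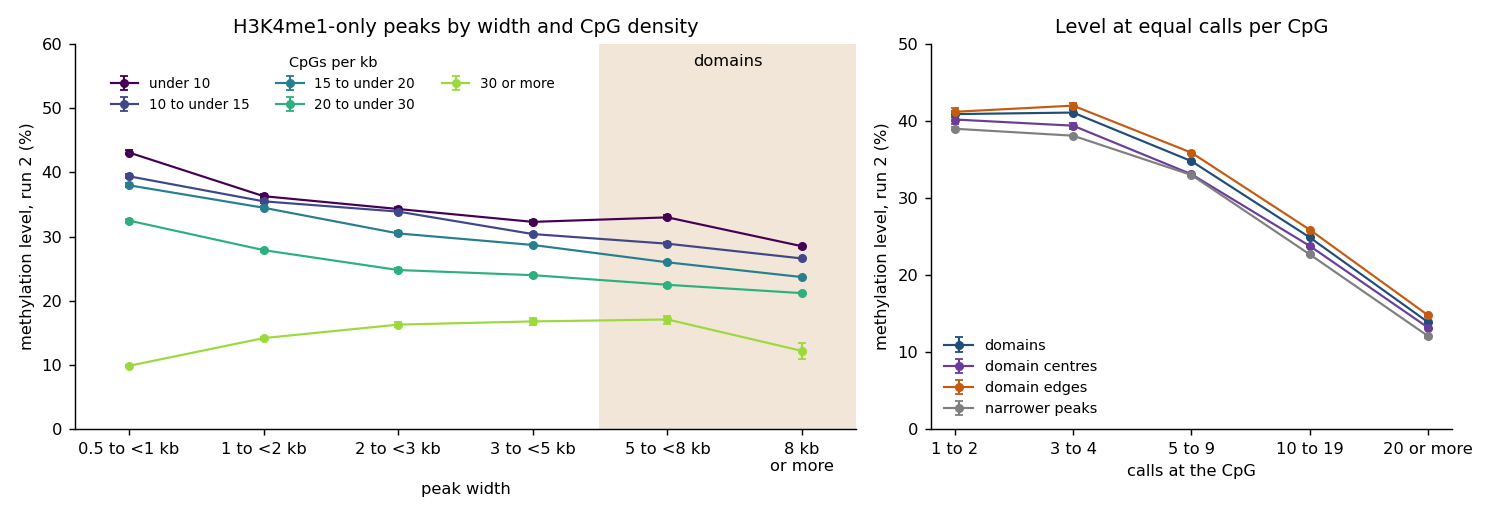
Left, methylation level in H3K4me1 run 2 (y, %) of H3K4me1-only peaks by width (x) and CpGs per kb (colours), with the 2 domain classes shaded: below 30 CpGs per kb the widest class had the lowest level. Right, level (y, %) by the number of calls at the CpG (x), where the domains lie 1.82 to 3.04 points above the narrower peaks and domain centres lie below domain edges. Bars are 95% intervals.

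Most domains lay over genes, and mainly over their bodies. Protein-coding genes were overlapped by 1594 domains (71.4%), and 387 (17.3%) lay over no gene. Protein-coding bodies took up 66.4% of the bases in domains, 60.8% of those in narrower peaks and 40.9% of chromosomes 1 to 19. Starts were taken from the RefSeq promoter table, which has entries for 25748 genes, and chromosome 18 was not used for them. Of the other 2162 domains, 512 (23.7%) had a start within 1 kb, against a background of 16.8% of all H3K4me1 peaks and against 12.2% of the narrower ones. A wide region meets more starts by its width alone: per Mb, domains held 28.2 starts and narrower peaks 55.3. There were 403 domains with a start inside, which held starts of 452 genes, and 364 of 16456 protein-coding genes with a start entry (2.21%) had a start within 1 kb of a domain. Of the 542 starts, 206 (38.0%) lay in the inner 40% of the width. The level around these starts fell from 25.5% at 2000 to 3000 bp before them to 6.23% in the last 250 bp (interval 5.96 to 6.51%). It returned to 28.4% at 2000 to 3000 bp after them. Calls per CpG were lowest just after the start, at 4.59, against 8.59 and 8.18 at those distances.

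Domains covered 1235 of 20661 protein-coding genes (5.98%), 925 of them with 1 domain and 7 genes with 6 or more. Pitpnc1, a phosphatidylinositol transfer protein gene, had the most domain bases, 116616 bp in 6 domains at 29.6%. Jarid2 followed with 112643 bp in 6 domains at 35.4%, 59.0% of the gene, and Kat6b with 98786 bp in 3 domains at 32.0%. Gse1 had the most domains, 7. Trim71 had 93.0% of its body in its domain, and Etv5, a transcription factor gene of the FGF response, had 81.3% in 2 domains. Ctbp2, a transcriptional corepressor gene, had 59.9% in 5 domains at 32.9%.

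Among 20 core and naive pluripotency factors, 9 had a domain over the body (45%, against a background of 5.98% of protein-coding genes). Counting 1 domain that lies at the start of Tdgf1, the list had 15 domains, whose levels ran from 8.37 to 35.6% with a median of 14.6%, and 12 of them were under 20% (80%, against 25.2% of all domains). Nanog had the lowest, 8.37% in run 2 (interval 6.49 to 10.7%, 657 calls) and 7.25% in run 1, in chr6:122701019-122707599. Dppa5a, an RNA-binding protein gene of pluripotent cells, had 8.48% (7.17 to 10%, 1485 calls), with 8.68% in run 1. Pou5f1 had 9% in chr17:35496730-35506105 and 15.0% in chr17:35508335-35518926. Tbx3, a T-box factor gene, had 10.2% (9.10 to 11.3%, 2844 calls). Fgf4 had 17.0% and 14.6%, Klf5 20.4% and Sall4 24.6%. The 3 domains of Tfcp2l1 differed, at 10.4%, 35.6% and 14.4%, and the second is the highest of the list. Sox2, Klf2, Klf4, Zfp42, Prdm14, Nr5a2, Dppa2, Dppa4, Tdgf1, Utf1 and Lin28a had no domain over the body. Prdm14 and Nr5a2 each had a wide H3K4me1 peak that shared another mark.

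Signalling genes of the LIF, BMP, Nodal, FGF and Wnt pathways had a domain in 11 of 25 cases (44.0%, background 5.98%), with 19 domains from 11.8 to 60.6% and a median of 23.1%. Among receptors, Lifr had 2 domains at 15.4% and 27.4%, and Fgfr1, an FGF receptor gene, had 2 at 25.7% and 17.4%. Of the feedback inhibitors and targets, Socs3, the inhibitor of LIF signalling, had 17.2% and 11.8%, Id1, a BMP target, 12.2%, Smad7 23.1% and Spry4, an inhibitor of FGF signalling, 12.6%. Etv4 had 21.6% and the 2 domains of Etv5 had 20.5% and 18.1%. Nodal, the ligand, had 24.1%, with 44.5% in the centre and 14.5% at the edges. Tcf7l1, the Wnt-pathway repressor of the pluripotency network, had 5 domains from 30.6 to 37.6%, all above the median of all domains. Ctnnb1, which encodes beta-catenin, was the highest, at 60.6% (interval 53.1 to 67.6%).

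DNA methylation and demethylation enzymes had a domain in 5 of 11 cases (45.5%, background 5.98%), with 9 domains at a median of 27.1%. Tet1 and Tet2, which oxidise methylcytosine, had 3 each. Those of Tet1 had 54.5%, 37.5% and 27.1%, and those of Tet2 58.1%, 20.1% and 16.7%. The 58.1% domain of Tet2 had the lowest CpG density of all domains, 3.30 per kb. Dnmt1, the maintenance methyltransferase, had 28.0%, Dnmt3a 16.5% and Zfp57, which protects imprints, 11.9%. Enzymes that write or erase H3K4 methylation and their partners had a domain in 4 of 15 cases (26.7%, background 5.98%), over Setd1b, Kdm1a, Kdm5b and Rbbp5, and Kmt2c and Kmt2d had none. Within Setd1b, a domain had 9.63% in its centre and 52.2% at its edges. Housekeeping genes had a domain in 4 of 18 cases (22.2%, also above the background of 5.98%), Actb at 35.3%, Ywhaz at 48.6%, Polr2a at 36.6% and Ldha at 17.3%. Regulators of differentiation had a domain in 0 of 19 cases, near the background of 5.98% for a list of this length. An H3K27me3 peak lay over 18 of the 19, against 7500 of all 20661 protein-coding genes. But only 1 of the 19 had a wide H3K4me1 peak that the rule left out for sharing another mark. These lists hold few genes, and no test of a list against the other genes was made.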

How the data were processed

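CUT&Tag-BS was measured in 11 samples of E14 cells, 8 of them with bisulfite. The authors deposited 1 table with raw counts per CpG and bisulfite library, 1 column for methylated and 1 for all calls, and peak lists as positions without scores. Both strands of a CpG share a line. Per the submitters' processing notes, cutadapt 1.12, Bismark 0.23.0, Bowtie2 2.3.0, HOMER 4.10.3, bedtools 2.29.2 and build mm10 were used; their roles, and the treatment of duplicates, are not given in the sources used here. Of 395568 CpGs in the RefSeq promoter sequences of GRCm38.p6, all 395568 stood at the same position in the table.

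Groups came from the labels, 0 count columns were left out, and positions are counted from 1. Peaks overlapped if they shared 1 bp. Levels are summed calls, with run 2 as the value reported and run 1 beside it. A domain needed 20 calls for its own level, 10 in centre and in edges for their difference, and 20 in a window. The domains, the gene lists and the markers were chosen with earlier results of these data known. Named were the 10 widest domains, the 5 lowest and 5 highest with at least 100 calls, the 3 with the largest centre minus edges difference in each direction with at least 50 calls in both zones, the 3 on each side of the width limit, and those at listed genes. Of the 5 lowest, 1 is not reported here. Genes were matched to the RefSeq table by symbol or synonym, and Nr0b1, Kdm5c, Hprt, Pgk1 and Gata1, off chromosomes 1 to 19, were not analysed here. The sequence near a start on chromosome 18 was not used. The count of domains with a lower centre was tried on simulated calls with a fixed level in centre and edges. Variation of the level along a domain, as seen in the real data, was not simulated. Python 3.11.15, numpy 2.4.6, pandas 2.3.3 and matplotlib 3.10.9 were used. Other runs, call minimums, weights, widths, zones and peak lists were tried as alternatives.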

Additional observations from a re-analysis of the deposited data

How the results depend on the processing

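Without a biological replicate, no value here has a test, and intervals cover counting error only. No paired analysis was possible because the values come from 1 library per mark and from no test. The level of the domains was 24.6% at CpGs with at least 5 calls, 20.4% at 10 or more, 33.2% as a mean of CpG levels, 25.4% from 8 kb, 26.4% without another mark within 5 kb, 28.6% without a gene start within 1 kb and 25.7% with a control peak of 5 kb. In these settings the difference from narrower peaks was -2.60, 0.157 (reversed), -1.80, -4.89, -4.02, -4.58 and -4.56 points. It was -3.91 in run 1 alone, and, in alternatives chosen after seeing the data, -4.12 as a mean over CpG density classes and 2.18 (reversed) over classes of calls at a CpG. That construction compares CpGs of like depth. Centre minus edges was -3.89, -2.66, -4.35, -3.28, -4.50, -6.54 and -4.57 points in the same 7 settings, -4.36 in run 1 alone, -9.36 for inner and outer 25% of the half-width, -5.96 away from dense CpGs and -2.00 over the call classes, so it kept its sign in all of them. Domains with a centre at least 20 points lower numbered 137 from 8 kb and 803 with the narrower zones. Those at least 20 points higher numbered 78 from 8 kb, 141 without a gene start nearby and 136 with a control peak of 5 kb. A limit of 8 kb left 883 domains, by construction, and 909 domains had a gene start within 5 kb. Beyond these constructions, the cause of the differences was not tested. The 50-call and no-minimum medians of domain levels were both 27.3%.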

Other observations

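Domains seldom stood alone. Another H3K4me1 peak lay within 5 kb of 1956 domains (87.7%), against 70.7% of the narrower peaks, and another domain did for 631 (28.3%). The median gap from a domain to the next H3K4me1 peak was 1149 bp, against 1968 bp for the narrower peaks. Another mark's peak lay within 5 kb of 335 domains without touching them. Chromosome 11 had the most domains, 195, and chromosome 14 the fewest, 55, among them the widest, over Kat6b.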
